A study of Mus musculus with 6 samples.

Results

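Potassium channels set how an electrically active cell returns to rest. In gastrocnemius, a mostly fast-twitch muscle of the calf, the RNA of 90 potassium channel genes was measured on Affymetrix Mouse Gene 2.0 ST arrays. The genes were taken as all probe sets whose 1 platform gene symbol starts with Kcn and a further letter, which gave 97 of 41345 probe sets. For the 7 genes with 2 such probe sets, the one with the higher mean over the 6 arrays was used, so that 90 of 22180 genes with 1 symbol are described. Of these, 88 encode proteins and 2, Kcnq1ot1 and Kcnd3os, are long noncoding RNA genes at channel loci. A further 4 probe sets, which carry a Kcn symbol beside another symbol (Kcnj13 with Gigyf2, Kcnmb4 with Kcnmb4os1, and 2 of Kcnk3 with Gm9899), were left out.

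The study compared 3 transgenic mice with 3 wild-type (WT) mice, all male, 3 months old and labelled with a C57 background (C57BL/6 in the paper's methods), with 1 array per mouse. The paper's methods describe F1 offspring of founders that carry a porcine DGAT1 cDNA under a porcine muscle creatine kinase (MCK) promoter, crossed with WT mice. Muscle creatine kinase is made in differentiated skeletal and heart muscle. The sample labels call the same mice a DGAT1 knockout. DGAT1 catalyzes the last step of triacylglycerol synthesis. Mouse Dgat1 read 8.09, 7.65 and 7.73 on the log2 scale in transgenic mice and 7.96, 7.26 and 7.79 in WT mice, which overlap, so no loss of the mouse transcript was seen on these arrays. Porcine sequence need not bind mouse probes, and the transgene was not measured. The number of founder lines, and whether the WT mice were littermates, is not given in the sources used here.

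All values are log2 signals per probe set. Array medians were 5.71 to 5.88, and the number of arrays limits the precision. Defining genes of skeletal muscle, such as Acta1 and Ckm, had signals of 13.33 to 13.67 on every array, so the tissue label holds. Hepatocyte genes varied widely between mice of both groups, and 8 of 8 had higher means in transgenic mice (median log2 fold change 0.50). Their summed signal, on the log2 scale, spanned 8.65 to 12.62 in transgenic mice and 8.54 to 12.49 in WT mice, and their part in the results was not tested. Of the adipocyte genes 5 of 5 measured had higher means in transgenic mice (median log2 fold change 0.25), with summed signals of 12.05 to 12.32 in transgenic and 11.95 to 12.43 in WT mice. Since whole muscle was used, fewer cells of a type and less RNA per cell cannot be told apart.

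As background, a muscle fiber fires an action potential when sodium channels open, and potassium leaving the cell brings the membrane back. Voltage-gated (Kv) channels open on depolarization and end the spike. Inward rectifiers (Kcnj) hold the resting potential, and those that sense ATP link it to the energy state of the fiber. Calcium-activated channels respond to the calcium that triggers contraction. Tandem pore domain channels (Kcnk) carry a steady leak. A pore is built by alpha subunits, while auxiliary subunits change its gating or its delivery to the surface.

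The 250 bases before the annotated start of 5 genes on which the results turn are printed below, from RefSeq on GRCm38.p6. Kcna4, Kcna7 and Kcnj2 are shown because their signals were among the highest in muscle. Kcna3 is shown because it stood low in all 3 transgenic mice, and Kcnma1 for both reasons. Capitals mark E-boxes (any CANNTG, a pattern that reads the same on both strands). Myogenic factors such as MyoD can bind some of its forms, and the marks do not tell the forms apart. Kcna4 lies at chr2:107290339-107290588 (+), Kcna7 at chr7:45405710-45405959 (+), Kcnj2 at chr11:111065914-111066163 (+), Kcna3 at chr3:107035912-107036161 (+) and Kcnma1 at chr14:24004206-24004455 (-).
Kcna4: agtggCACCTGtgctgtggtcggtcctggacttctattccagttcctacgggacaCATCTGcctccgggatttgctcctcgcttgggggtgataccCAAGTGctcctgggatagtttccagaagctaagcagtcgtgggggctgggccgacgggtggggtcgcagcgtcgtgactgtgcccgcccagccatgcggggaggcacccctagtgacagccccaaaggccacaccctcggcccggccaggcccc
Kcna7: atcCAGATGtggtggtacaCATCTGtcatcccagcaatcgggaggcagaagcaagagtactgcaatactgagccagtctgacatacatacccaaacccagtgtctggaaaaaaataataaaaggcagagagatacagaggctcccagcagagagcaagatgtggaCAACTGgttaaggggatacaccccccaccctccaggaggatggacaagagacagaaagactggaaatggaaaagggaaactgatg
Kcnj2: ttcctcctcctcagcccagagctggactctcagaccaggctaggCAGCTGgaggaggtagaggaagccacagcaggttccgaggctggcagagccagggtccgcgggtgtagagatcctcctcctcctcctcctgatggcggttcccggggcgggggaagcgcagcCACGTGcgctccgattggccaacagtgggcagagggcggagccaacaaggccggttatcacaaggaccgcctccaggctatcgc
Kcna3: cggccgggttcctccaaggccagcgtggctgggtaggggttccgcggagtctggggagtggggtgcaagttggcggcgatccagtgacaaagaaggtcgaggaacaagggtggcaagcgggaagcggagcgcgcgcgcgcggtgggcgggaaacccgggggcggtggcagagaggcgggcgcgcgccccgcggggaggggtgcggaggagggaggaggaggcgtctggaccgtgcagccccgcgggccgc
Kcnma1: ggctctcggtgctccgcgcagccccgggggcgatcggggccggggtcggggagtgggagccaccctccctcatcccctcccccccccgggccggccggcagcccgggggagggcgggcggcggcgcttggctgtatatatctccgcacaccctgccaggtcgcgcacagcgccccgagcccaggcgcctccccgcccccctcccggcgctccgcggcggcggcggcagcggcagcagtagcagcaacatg

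The windows of Kcna4 and Kcna7 hold 3 E-boxes each and that of Kcnj2 holds 2, while those of Kcna3 and Kcnma1 hold 0. Kcna3 and Kcnma1 have 31 CG dinucleotides each in this window, Kcna4 and Kcnj2 have 14 each, and Kcna7 has 1. These letters are common: an E-box was found in 66.2% of all 32851 windows of this length, in 67.4% of the 95 windows of the 70 members that RefSeq's table lists, in 70.8% of the 48 windows of members above the array median in WT muscle and in 63.8% of the 47 windows of the other members. A MEF2 motif, searched on both strands, was in 2.92% of all windows and in 2 of the 95 windows of members. A match of letters is a description and not a bound site.

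In WT muscle, 49 of the 90 members (54.4%) had a mean above the median signal of all probe sets, which was 5.80. Over all probe sets 49.9% lay above it by construction, and over the brightest probe set of every gene 58.3% did, so the share of potassium channel genes was near that of genes in general. The 3 members just above the median were Kcnq3 (5.82), Kcne2 (5.81) and Kcnt2 (5.80), and the 3 just below it were Kcnd2 (5.76), Kcnh1 (5.74) and Kcne1 (5.72). A stricter mark is given by the olfactory and vomeronasal receptor genes, which work in the nose: the 95th percentile of their 1400 probe sets was 6.12 in WT muscle. Above this mark were 32 members (35.6%), compared with 50.1% of all genes. The 41 members not above the median had WT means of 4.25 to 5.76. Of the 2 noncoding RNA genes, Kcnq1ot1, the imprinted antisense RNA of the Kcnq1 locus, had 6.88, 6.75 and 6.28 in transgenic mice and 6.49, 6.88 and 6.99 in WT mice, while Kcnd3os was below the median. A probe set's signal also depends on its probes, so members were set against these common marks and not ranked against each other as transcripts.

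**Figure D1:**
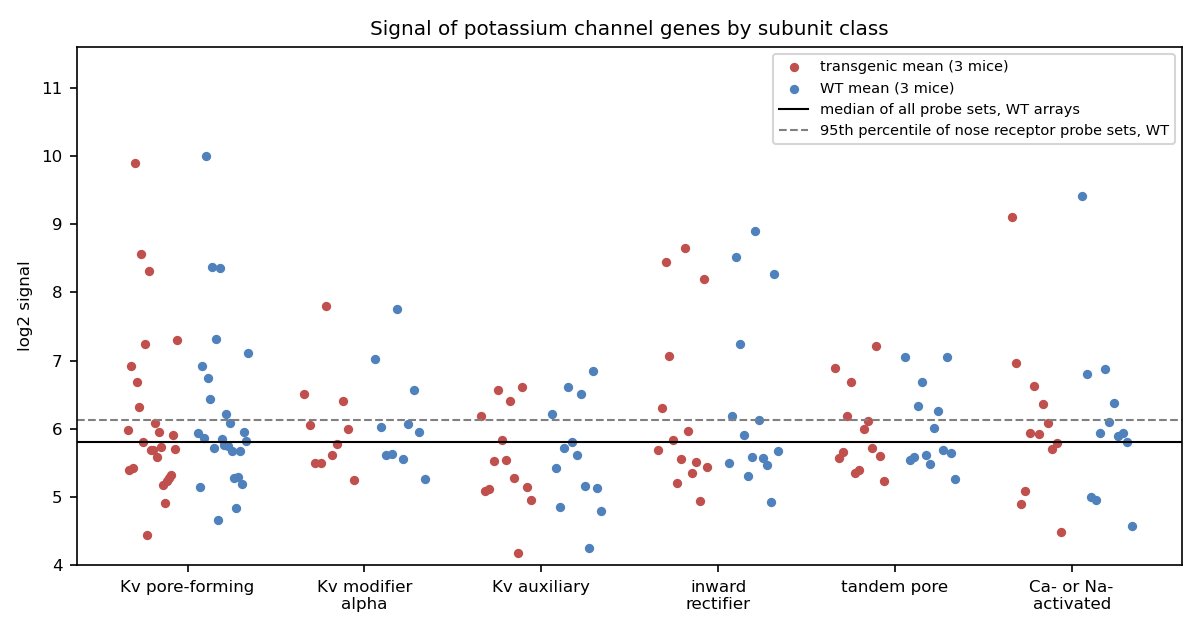
Mean log2 signal of each member in transgenic (left, red) and WT mice (right, blue), by subunit class, with 3 mice per mean; the 2 noncoding RNA genes are not drawn. The solid line is the median of all probe sets on the WT arrays and the dashed line is the 95th percentile of nose receptor probe sets; in every class many members lie near or below the dashed line, and the highest points belong to Kv pore-forming, inward rectifier and calcium-activated genes.

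Of the 26 Kv pore-forming genes, 15 were above the array median and 9 above the receptor mark. Kcna4, which encodes a rapidly inactivating A-type channel of the Shaker family, had signals of 9.82, 9.60 and 10.28 in transgenic mice and 10.12, 10.04 and 9.86 in WT mice. The groups overlapped, and the transgenic mice held both the lowest and the highest value. A second, dim probe set of Kcna4 had values of 4.67 to 5.13 in transgenic mice and 4.85 to 5.02 in WT mice. Kcna7, a Shaker-family gene known from skeletal muscle and heart, had 8.61, 8.71 and 8.38 in transgenic mice and 8.57, 8.33 and 8.20 in WT mice, again with overlap. Its mean in transgenic mice was 1.15 times that of WT mice (log2 fold change 0.20, standard error 0.17), and this value was 0.12 without WT replicate 3, 0.13 without transgenic replicate 2 and 0.30 without WT replicate 1.

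Kcnc4 and Kcnc1 encode Shaw-family channels that open at strong depolarization and close fast. Kcnc4, whose channel pairs with the Kcne3 subunit in muscle, had 8.45, 8.19 and 8.31 in transgenic mice and 8.43, 7.80 and 8.85 in WT mice. WT replicate 2 was the lowest and WT replicate 3 the highest of all 6 mice, so the WT mice enclosed the transgenic ones. Kcnc1 had 7.35, 7.09 and 7.30 in transgenic mice and 7.47, 7.15 and 7.33 in WT mice, with overlap. Kcne3 itself was below the array median, at 5.52, 5.40 and 5.69 in transgenic mice and 5.66, 5.66 and 5.54 in WT mice.

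Kcnq5, one of the genes of the slowly opening M-type current, had 7.28, 7.28 and 7.35 in transgenic mice and 7.05, 7.26 and 7.04 in WT mice. Every transgenic mouse was above every WT mouse by this narrow margin, with a fold change of 1.14 (log2 fold change 0.19, 95% confidence interval -0.14 to 0.52, adjusted p = 1 from limma). Kcnq5 was the 1 member of 90 (1.11%) with all transgenic mice above all WT mice, which held for 2.9% of all probe sets. Its second probe set, at 5.36 to 5.45 in transgenic and 5.15 to 5.42 in WT mice, overlapped. Kcna5, a delayed rectifier of muscle and vessels, had 6.80, 6.51 and 6.76 in transgenic mice and 6.81, 6.62 and 6.81 in WT mice.

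Kcna1 and Kcna2, the axonal delayed rectifiers of myelinated nerve, differed in how they stood to the array median. Kcna2 was above the receptor mark, with 6.94, 6.95 and 6.88 in transgenic mice and 6.86, 7.10 and 6.80 in WT mice. Kcna1 was just above the median, with 6.13, 5.93 and 5.88 in transgenic mice and 6.01, 5.99 and 5.82 in WT mice. Both overlapped between groups. Of the Schwann cell and nerve list 4 of 7 genes were measured, and 3 of these, Pmp22, Mbp and Sox10, averaged higher in transgenic mice. Summed over the 4 genes, the signal was 10.32 to 10.63 in transgenic and 9.95 to 10.20 in WT mice, which is carried mostly by Pmp22. S100b and Sox10 did not pass the receptor mark, and the part of nerve content in these values was not tested.

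Modifier alpha subunits do not form a channel alone but join Shab-family subunits and shift their gating. Of 10 such genes 6 were above the array median and 3 above the receptor mark. Kcng4, one of these, had 7.95, 7.85 and 7.59 in transgenic mice and 8.11, 7.62 and 7.51 in WT mice, and WT replicate 1 stood above the rest. Kcnf1 had 6.07, 6.59 and 6.86 in transgenic mice and 7.43, 6.47 and 7.17 in WT mice. It varied most between mice, together with Kcnv2, with a pooled standard deviation within groups of 0.45, where the median was 0.18 over the members and 0.25 over all probe sets. Its mean was 0.700 of the WT level (a log2 difference of -0.52 with a standard error of 0.31; limma's adjusted p = 1). WT replicate 2 lay among the transgenic values, and without it the log2 fold change was -0.79, past the study's threshold for a call. It was -0.30 without transgenic replicate 1 and -0.31 without WT replicate 1.

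Among the 13 auxiliary and regulatory genes of Kv channels, 5 were above the array median and 4 above the receptor mark. These were Kcnip3, which encodes the calcium sensor DREAM, Kcne1l and Kcne4 of the single-span Kcne family, and the beta subunit gene Kcnab1. Their WT means were 6.84, 6.62, 6.50 and 6.21. The other beta subunits were dim: Kcnab2 had 4.91, 5.01 and 5.33 in transgenic mice and 5.45, 5.29 and 5.52 in WT mice, and Kcnab3 had 5.01, 5.16 and 5.19 in transgenic mice and 4.64, 5.13 and 4.80 in WT mice. Each overlapped between groups at one mouse, Kcnab2 toward lower and Kcnab3 toward higher means in transgenic mice.

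Of the 14 inward rectifier genes 7 were above the array median and 6 above the receptor mark. Kcnj2, the strong rectifier that holds the resting potential of muscle and that is mutated in Andersen-Tawil syndrome in human, had 8.82, 8.43 and 8.69 in transgenic mice and 9.09, 8.93 and 8.70 in WT mice. Its mean was 0.834 of the WT level (log2 fold change -0.26, 95% confidence interval -0.68 to 0.15), and transgenic replicate 1 overlapped WT replicate 3. The log2 fold change was -0.15 without transgenic replicate 2, -0.17 without WT replicate 1 and -0.08 with array weights. Kcnj12, a second strong rectifier of muscle, had 6.89, 7.13 and 7.19 in transgenic mice and 7.52, 7.05 and 7.16 in WT mice, with overlap. Kcnj16, which lies next to Kcnj2 on chromosome 11 with no other protein-coding gene between them, was below the array median in WT muscle.

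The ATP-sensitive channel was represented by both of its pore genes. Kcnj11, the pore of the muscle and beta cell channel, had 8.55, 8.53 and 8.28 in transgenic mice and 8.79, 8.26 and 8.53 in WT mice. Kcnj8, the pore known from vessel walls, had 8.37, 8.19 and 8.01 in transgenic mice and 8.23, 8.16 and 8.43 in WT mice. Their regulatory partner in muscle and vessels, the sulfonylurea receptor gene Abcc9, had 10.55, 10.58 and 10.38 in transgenic mice and 10.83, 10.31 and 10.75 in WT mice, while the receptor of beta cells, Abcc8, was below the receptor mark on average with 6.11, 6.13 and 5.97 in transgenic mice and 6.25, 6.00 and 5.95 in WT mice. None of these 4 genes separated the groups. Smooth muscle and pericyte markers, to which Kcnj8 and the vessel gene Kcnmb1 also belong by their known expression, had a summed signal of 12.88 to 13.13 in transgenic and 12.89 to 13.08 in WT mice, with 7 of 7 genes above the receptor mark. Kcnj10, the glial rectifier, was close to that mark, with 6.34, 6.38 and 6.21 in transgenic mice and 5.90, 6.49 and 6.16 in WT mice.

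**Figure D2:**
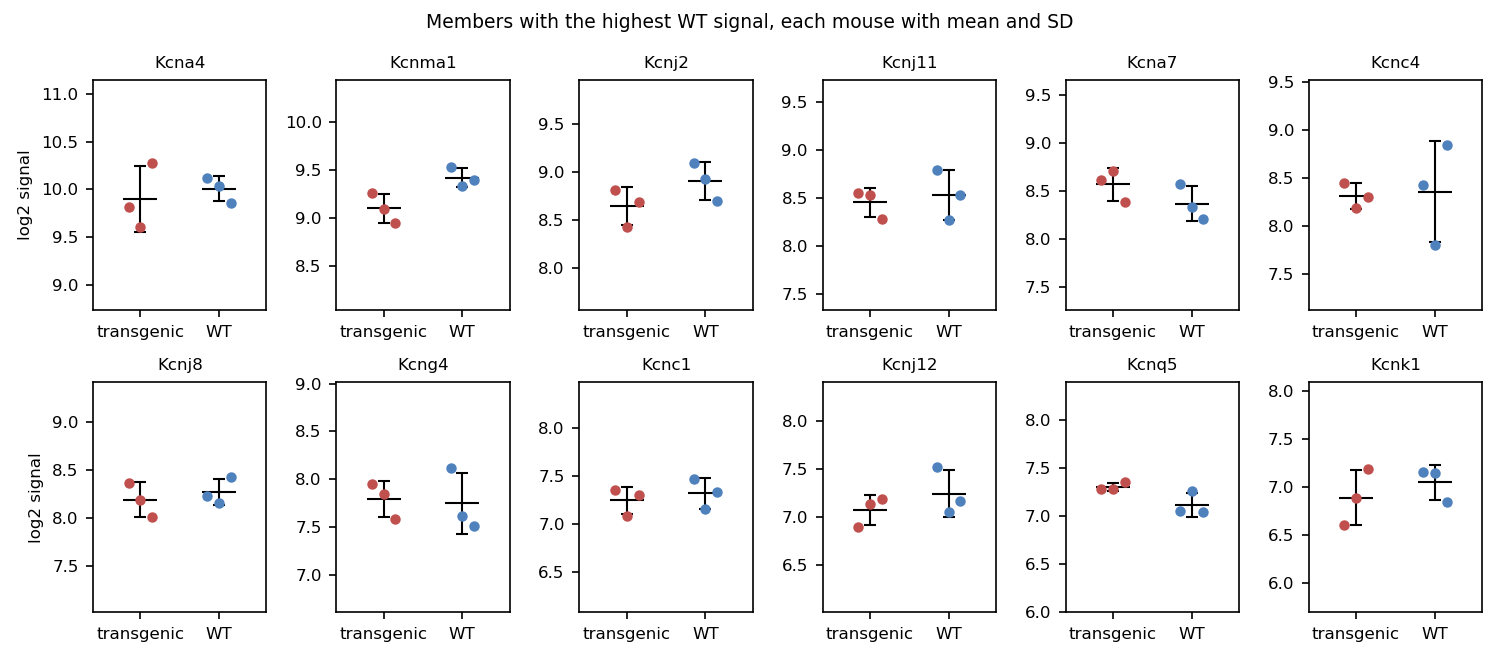
Log2 signal of each mouse for the 12 members with the highest WT mean, transgenic (red) left of WT (blue), with mean and standard deviation (n = 3 per group); all panels span the same number of log2 units, from different starting values. Kcnma1 and Kcnq5 are the 2 genes whose groups do not overlap, and Kcnc4 has its lowest and highest values in WT mice.

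Of the 13 tandem pore domain genes 6 were above the array median and 5 above the receptor mark. Kcnk1 had 6.60, 6.89 and 7.19 in transgenic mice and 7.16, 7.15 and 6.84 in WT mice, with both the lowest and the highest value in transgenic mice. Kcnk6, a widely expressed relative, had 7.21, 6.98 and 7.43 in transgenic mice and 6.95, 7.02 and 7.17 in WT mice. Kcnk13, known from microglia, had 5.88, 6.61 and 6.06 in transgenic mice and 6.15, 6.52 and 6.31 in WT mice. None of the 13 separated the groups, and their log2 fold changes ran from -0.27 to 0.16.

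Among the 12 calcium- and sodium-activated genes 9 were above the array median and 4 above the receptor mark. Kcnma1, the pore of the large-conductance (BK) channel that both voltage and calcium open, had 9.26, 9.10 and 8.95 in transgenic mice and 9.53, 9.33 and 9.39 in WT mice. All 3 transgenic mice were below all 3 WT mice. The mean was 0.803 of the WT level (log2 fold change -0.32, 95% confidence interval -0.67 to 0.04, adjusted p = 1 from limma), which includes no difference. A second probe set of Kcnma1 had 5.24, 4.66 and 4.90 in transgenic mice and 5.05, 5.56 and 6.53 in WT mice, so transgenic replicate 1 overlapped WT replicate 1 there, and its log2 fold change was -0.78. With the mean of both probe sets the log2 fold change of Kcnma1 was -0.55 (unadjusted p = 0.0405 from limma), short of the fold that the study's threshold needs.

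BK channels carry auxiliary beta (Kcnmb) and gamma (Lrrc) subunits that shift the voltage and calcium needed to open. Lrrc52, a gamma subunit gene, had 7.46, 6.98 and 7.93 in transgenic mice and 8.17, 8.25 and 8.08 in WT mice, without overlap, and transgenic replicate 2 was the lowest. Its mean was 0.611 of the WT level (a log2 difference of -0.71 with a standard error of 0.25; limma's adjusted p = 1), past the study's threshold. Lrrc52 was not called without transgenic replicate 1 or 2 or WT replicate 1 or 2, where the log2 fold change was -0.47 to -0.71, nor by the methods' t-test. The other gamma genes were not called. Lrrc38, a further gamma subunit gene, had 8.10, 8.28 and 7.97 in transgenic mice and 8.16, 7.62 and 8.15 in WT mice. Lrrc26 had 6.47, 6.72 and 6.56 in transgenic mice and 6.34, 6.44 and 6.37 in WT mice, with all transgenic mice higher and a fold change of 1.15. Kcnmb1, the beta subunit of smooth muscle, had 6.73, 7.11 and 7.04 in transgenic mice and 6.92, 6.75 and 6.75 in WT mice, and Kcnmb4, the neuronal one, had 5.93, 5.84 and 6.04 in transgenic mice and 5.92, 5.96 and 5.95 in WT mice.

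**Figure D3:**
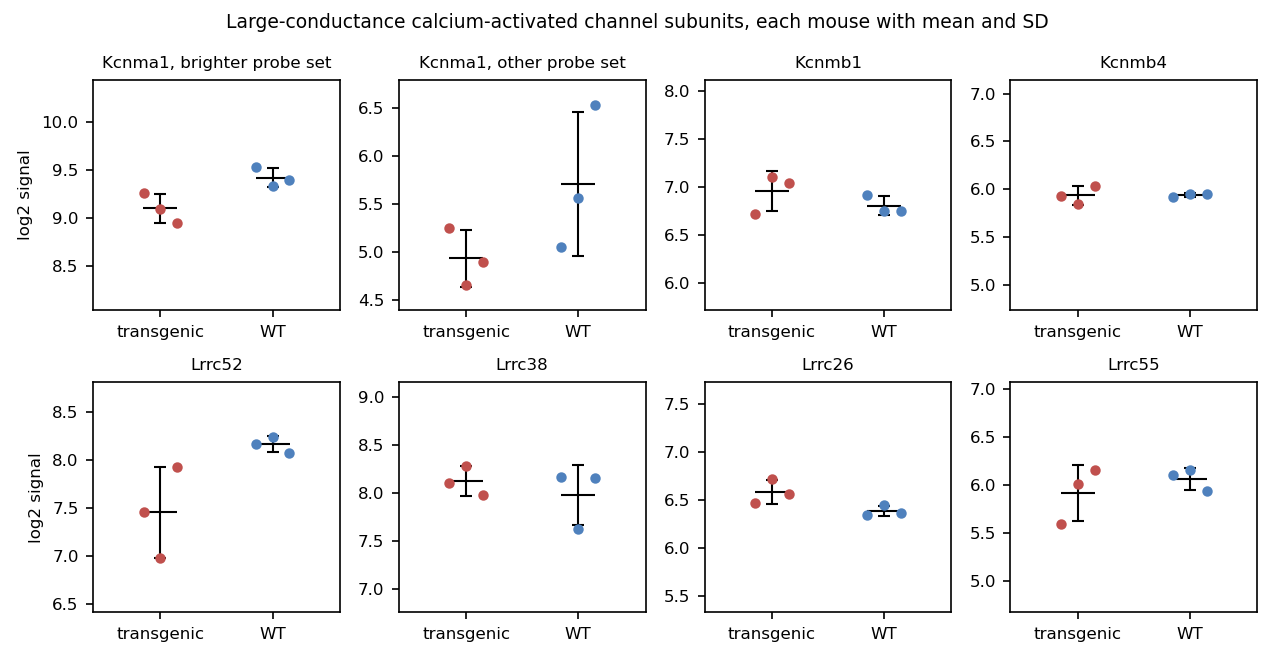
Log2 signal of each mouse for the BK pore gene Kcnma1 (both probe sets), 2 beta and 4 gamma subunit genes, transgenic (red) left of WT (blue), with mean and standard deviation (n = 3 per group); all panels span the same number of log2 units. The brighter Kcnma1 probe set and Lrrc52 are lower in every transgenic mouse, and Lrrc26 is higher in every transgenic mouse by a small margin.

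The small-conductance (SK) genes shape the afterhyperpolarization that follows a spike. Kcnn1 had 6.62, 6.80 and 6.47 in transgenic mice and 6.96, 6.81 and 6.86 in WT mice, with all transgenic mice lower by a narrow margin and a fold change of 0.841. Kcnn3, which rises in denervated muscle, had 6.34, 6.53 and 6.21 in transgenic mice and 6.65, 5.85 and 6.65 in WT mice, with its lowest value in WT replicate 2. Kcnn2 had 5.73, 6.16 and 5.86 in transgenic mice and 5.88, 6.47 and 5.95 in WT mice, with overlap. Kcnn4, the intermediate-conductance channel of red and white blood cells, had 6.28, 5.93 and 6.02 in transgenic mice and 6.01, 5.63 and 6.06 in WT mice, below the receptor mark in all but transgenic replicate 1.

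Between transgenic and WT mice 0 of the 90 members passed an adjusted p under 0.05 from limma, as did 0.0% of all 41345 probe sets. The study's own threshold, an unadjusted p under 0.05 with at least a 1.5-fold change, was passed by 0 members, by 1.49% of all probe sets and by 0.537% of the brightest probe sets of all genes. At an unadjusted p under 0.05 from limma, without a fold minimum, 2 members were lower (2.22% of 90, where 1.46% of all probe sets were lower) and 0 were higher (1.44% of all probe sets). These shares are near the background. For the 12 members with the highest WT signal the 95% confidence intervals of the log2 fold change lay within -0.68 and 0.60. The methods' t-test called 0 members at the study's threshold as well, and 0 probe sets after Benjamini-Hochberg adjustment.

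The 2 members with an unadjusted p under 0.05 were both dim Kv genes. Kcna3, the delayed rectifier known from lymphocytes, macrophages and some axons, had 5.44, 5.33 and 5.50 in transgenic mice and 5.60, 5.99 and 6.02 in WT mice. All transgenic mice were lower, and the means were 5.42 ± 0.09 in transgenic and 5.87 ± 0.23 in WT mice (SD, n = 3 each). The mean was 0.733 of the WT level (a log2 difference of -0.45 with a standard error of 0.17; limma's adjusted p = 1). Kcnh7, an Erg-type channel gene known from the nervous system, had 5.06, 5.43 and 5.35 in transgenic mice and 5.62, 5.65 and 5.76 in WT mice, again without overlap. Its mean was 0.760 of the WT level (a log2 difference of -0.40 with a standard error of 0.16; limma's adjusted p = 1). Leaving out any 1 mouse other than WT replicate 1 put limma's unadjusted p of Kcna3 above 0.05 (0.0565 to 0.105), and leaving out any 1 other than transgenic replicate 2 did so for Kcnh7 (0.0554 to 0.14). Both were below the receptor mark in all 6 mice and both were named because their p was the smallest of the 90.

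Markers of cells that use Kcna3 were measured beside it. Of 6 measured macrophage and lymphocyte genes 5 averaged higher in transgenic mice, while Cd3e averaged lower (log2 fold change -0.09), as Kcna3 did. Summed over the list, the signal was 10.37 to 10.90 in transgenic and 9.89 to 10.32 in WT mice. The macrophage gene Cd68 had 7.75, 7.69 and 8.44 in transgenic mice and 7.26, 7.18 and 7.51 in WT mice. It passed the study's threshold (unadjusted p = 0.0288 from limma), as did 1.49% of all probe sets, but not an adjusted p under 0.05. The leukocyte gene Ptprc had 6.39, 6.05 and 7.82 in transgenic mice and 5.96, 5.73 and 6.09 in WT mice, and transgenic replicate 3 stood far above the rest. Cd3e of T cells was below the receptor mark in every mouse, at 5.01, 5.53 and 5.38 in transgenic mice and 5.57, 5.37 and 5.24 in WT mice. Ptprc did not pass that mark on average in WT mice either, and the part of these cells in the Kcna3 signal was not tested. Of 6 neuron genes 5 had lower means in transgenic mice, while Tubb3 had a higher mean. On average in WT mice, 4 of the 6 did not pass the receptor mark. Rbfox3, which passed it, had 6.22, 6.18 and 6.15 in transgenic mice and 6.45, 6.74 and 6.61 in WT mice. The Schwann cell and nerve list went the other way, with 3 of 4 measured genes higher in transgenic mice. Whether either list measures nerve in this muscle, and its part in the Kcna3 and Kcnh7 signals, was not tested.

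**Figure D4:**
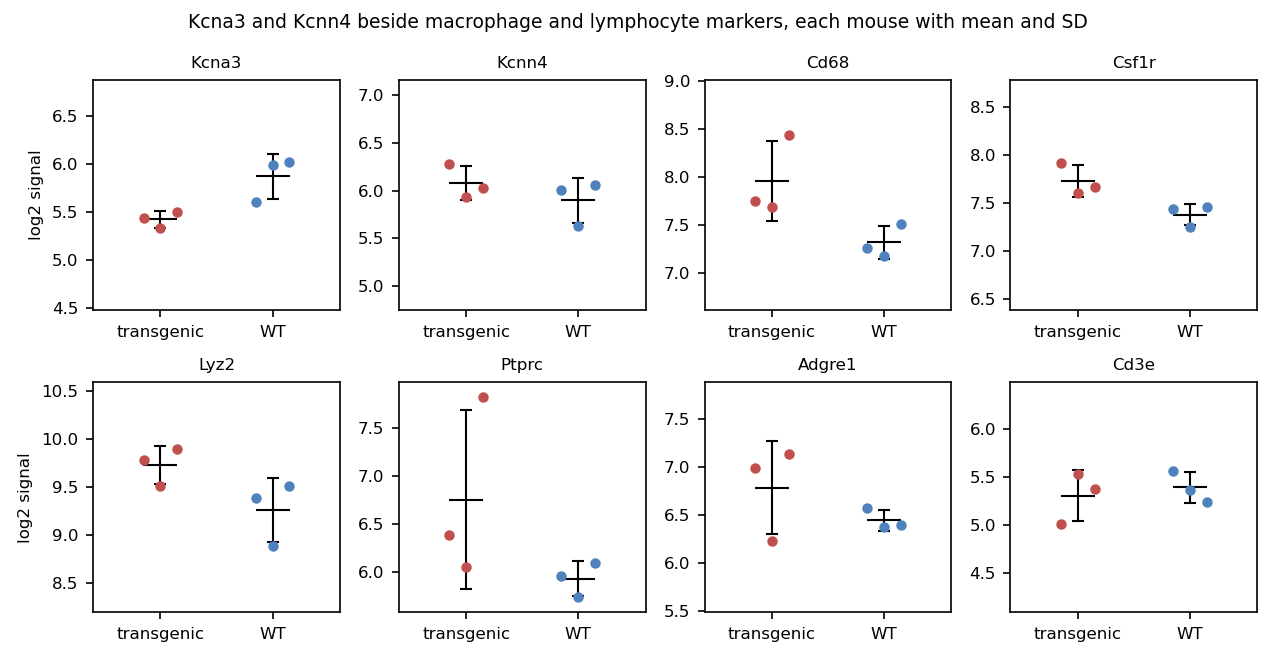
Log2 signal of each mouse for Kcna3, Kcnn4 and 6 macrophage or lymphocyte markers, transgenic (red) left of WT (blue), with mean and standard deviation (n = 3 per group); all panels span the same number of log2 units. Kcna3 is lower in all 3 transgenic mice, whereas Cd68, Csf1r and Lyz2 are higher in all 3 or level with the top WT mouse.

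Lower means were more common than higher ones among the members. In transgenic mice 60 of 90 members (66.7%) had a lower mean, compared with 51.2% of all probe sets and 54.8% of the brightest probe sets of all genes. The shifts were small, with a median log2 fold change of -0.06 over the members and -0.02 over all genes. Among the members above the array median 37 of 49 were lower, and among the others 23 of 41. The split was made on WT means, which also enter the fold change, so part of this contrast may be built in. The median signal of the 90 members was 5.86, 5.86 and 5.71 in the transgenic mice and 5.81, 5.90 and 5.87 in the WT mice, and transgenic replicate 3 alone lay below the range of the WT mice. Without transgenic replicate 3 the count was 50 of 90 (55.6%, where 54.2% of all genes were lower), and without WT replicate 2 it was 54 (60.0%, where 59.0% of all genes were lower). Without WT replicate 1 it was 68 (75.6%, where 51.0% of all genes were lower), so the difference from the background changed with single mice.

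All 3 transgenic mice lay below all 3 WT mice for 9 of the 90 members, which held for 4.31% of all probe sets. Beside Kcnma1, Kcnn1, Kcna3 and Kcnh7 these were Kcns2, Kcnt1, Kcnj3, Kcnj4 and Kcng3. Kcns2, a modifier subunit gene, had 5.78, 5.88 and 5.68 in transgenic mice and 6.01, 6.16 and 6.03 in WT mice. Kcnt1, which encodes a sodium-activated channel, had 5.68, 5.75 and 5.67 in transgenic mice and 5.89, 5.81 and 6.13 in WT mice, and Kcnj4, a strong rectifier gene, had 5.42, 5.32 and 5.31 in transgenic mice and 5.46, 5.51 and 5.73 in WT mice. These 3 were below the receptor mark on average in WT mice. The gap between the groups was narrow for the G-protein gated rectifier gene Kcnj3, with 5.88, 6.03 and 5.97 in transgenic mice and 6.24, 6.12 and 6.04 in WT mice. A second, dim probe set of Kcnj3 overlapped, with 4.08 to 4.61 in transgenic and 4.24 to 4.56 in WT mice. Kcng3, a further modifier subunit gene, had 5.49, 5.51 and 5.51 in transgenic mice and 5.55, 5.66 and 5.66 in WT mice. Genes are not independent replicates, and no test was run on these counts.

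**Figure D5:**
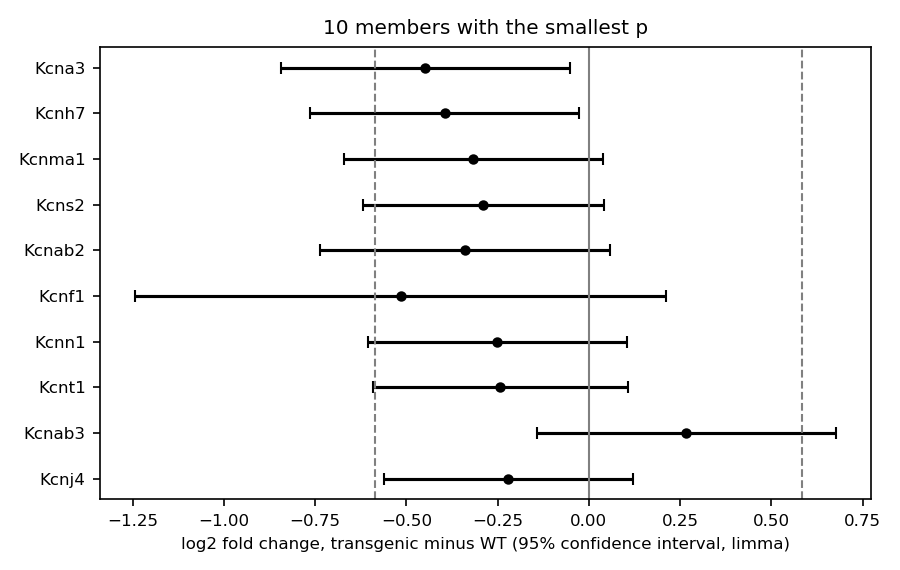
Log2 fold change of transgenic minus WT mice with its 95% confidence interval from limma, for the 10 members with the smallest p (3 mice per group); dashed lines mark a 1.5-fold change in each direction. The intervals of Kcna3 and Kcnh7 end just below 0 and the other 8 include 0.

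Of 11 measured genes known as potassium channels of skeletal muscle, 9 had lower means in transgenic mice and 0 passed the study's threshold. Their log2 fold changes had a median of -0.08. All 8 defining genes of skeletal muscle had lower means as well, with a median log2 fold change of -0.10 and a summed signal of 15.57 to 15.66 in transgenic and 15.66 to 15.73 in WT mice, and its part in the channel values was not tested. Of 9 channels listed for nerve, glia, vessels or immune cells, among them the widely expressed Kcnk6, 6 had higher means, and the median was 0.04. Over the brightest probe sets of all genes 54.8% had a lower mean in transgenic mice. Of 20 measured partner genes of muscle excitability 16 had lower and 4 higher means, and Lrrc52 was the 1 past the study's threshold (1.49% of all probe sets). Among partners with strong muscle signal, the log2 fold change was -0.06 for the calcium release channel Ryr1. It was -0.02 for the voltage sensor of excitation-contraction coupling Cacna1s and -0.00 for the chloride channel Clcn1. Other bright partners differed more, such as Cacng1 (0.22), Abcc9 (-0.13) and the calcium channel gene Cacnb1 (0.12), beside Lrrc52. The 95% confidence intervals were wide, such as -0.47 to 0.46 for Clcn1.

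WT replicate 2 held the highest value of the 6 mice for 21 members and the lowest for 7. WT replicate 3 held the highest for 21 and the lowest for 10. The array of WT replicate 2 had the highest median of the 6 (5.88) and the smallest standard deviation (1.82). A few low values of WT replicate 2 are given here, chosen after they were seen. Kcnc4, Kcnn3 and the partner genes Cacng1 and Atp1b2 had their lowest value of all 6 mice in WT replicate 2. Cacng1, the gamma subunit of the muscle calcium channel, had 9.76, 10.08 and 9.98 in transgenic mice and 9.94, 9.10 and 10.12 in WT mice, and Atp1b2, a subunit of the sodium pump, had 10.56, 10.40 and 10.38 in transgenic mice and 10.71, 9.99 and 10.92 in WT mice. The same mouse had the highest values of the slow myosin Myh7, at 7.86, 7.90 and 7.80 in transgenic mice and 7.93, 8.60 and 8.03 in WT mice, and of Myh2 of fast oxidative fibers, at 11.23, 11.07 and 11.28 in transgenic mice and 11.29, 11.80 and 11.21 in WT mice. The part of fiber composition or of the array itself in these values was not tested. The 7 genes with 2 probe sets had log2 fold changes of the same sign on both.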

How the data were processed

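Gastrocnemius RNA of 3 transgenic and 3 WT mice was measured with 1 Affymetrix gene array per mouse. The deposited log2 values were made by the authors with GCOS and GeneSpring GX, and the submitters' processing notes name RMA. The genome build is not given in the sources used here. Since RMA sets all arrays to like distributions, a change of total RNA cannot be seen. Values were used as deposited. Of 41345 probe sets 23521 had 1 gene symbol in the platform annotation, 1820 several and 16004 none. Groups were compared with limma (version 3.58.1, R 4.3.3; lmFit and eBayes over all probe sets, two-sided, Benjamini-Hochberg adjustment), first tested on simulated data. The study's threshold was an unadjusted p under 0.05 with at least a 1.5-fold change. Lists and members were chosen with earlier results of these data known. Named genes were the 12 with the highest WT signal, the 10 with the smallest p, both channel lists, the 3 next to the array median on each side and any past the study's threshold. Separate mice are named as biological replicates, and no label links the replicate numbers. Alternatives left out each mouse, added a replicate block, renormalized by quantiles, weighted arrays, changed the variance prior, the probe set per gene or the test, and dropped dim probe sets.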

Additional observations from a re-analysis of the deposited data

How the results depend on the processing

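Over 13 alternatives, 454 of 497 log2 fold changes of 39 genes (the named members and Lrrc52) kept their direction and side of the study's threshold, while 35 reversed (18 uncalled genes), 6 were weaker (Lrrc52) and 2 stronger (Kcnf1). When 1 mouse was left out, 0 to 1 members and 0 to 1 partner genes passed the study's threshold (Kcnf1 without WT replicate 2). With array weights, 1 member (Kcnf1) and 0 partner genes passed, and by the methods' t-test 0 partner genes did. The weights were 0.46, 0.37 and 5.15 for WT replicates 1, 2 and 3, and 0.73 to 1.53 for the transgenic mice. The WT side of every weighted value therefore rests mostly on WT replicate 3. The log2 fold change ranged over the left-out mice between -0.29 and 0.043 for Kcna4, -0.21 and 0.057 for Kcnj11, -0.32 and 0.20 for Kcnc4, -0.17 and 0.011 for Kcnj8, -0.071 and 0.23 for Kcng4, -0.16 and 0.0082 for Kcnc1, -0.117 and 0.037 for Kcna5, -0.29 and 0.11 for Kcnn3, -0.035 and 0.089 for Kcna1, -0.053 and 0.097 for Kcna2, -0.011 and 0.283 for Kcnj10, -0.357 and 0.0068 for Kcnk13, -0.22 and 0.038 for Kcnq3, -0.084 and 0.137 for Kcne2, -0.069 and 0.031 for Kcnt2, and -0.277 and 0.12 for Kcnd2. With array weights it was 0.093 for Kcna4, 0.054 for Kcnk1, 0.019 for Kcne3 and -0.141 for Kcne2, and after quantile normalization it was -0.0093 for Kcna2. Members above the mark in WT muscle numbered 49 against the array median. They numbered 32 against the median of probe sets with 1 symbol and 32 against the receptor percentile, since both marks are higher. Above the own median on each WT array were 39 members, and without single WT mice 46 to 49 were above the array median. The cause of the other shifts was not tested.

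Deviations from the group means correlated at 0.33, 0.40 and -0.17 between mice of the same number, 1 of them below 0. Between mice of different numbers the correlations ran from -0.46 to 0.17. No label links the numbers, so they were not taken to pair the samples, and a shared batch was not tested. With a replicate block 0 members and 1 partner gene passed the study's threshold, the median log2 fold change of the members was -0.06, and 921 of all probe sets passed, where 618 did without the block. Over all probe sets array weights raised the count to 2610, leaving out WT replicate 1 or WT replicate 2 gave 1106 or 1335, and it was 281 by the methods' t-test and 146 of 20673 brighter probe sets. The count of members with a lower mean was 50 to 68 without single mice, alternatives chosen after seeing the data. With 3 mice a group, and with many members below the receptor mark, small changes could not be told from the spread.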
